A study of Mus musculus with 32 samples.

Results

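The comparison set brains of tRNA-Phe-2-1-/- mice (Phe21) directly against brains of tRNA-Phe-3-1-/- mice (Phe31), with no wild type library in the test. The measurement was ATAC-seq, in which a transposase cuts open chromatin and the reads over a locus stand for its accessibility. It used 3 Phe21 libraries (replicates 7, 8 and 9) and 3 Phe31 libraries (replicates 10, 11 and 12), 6 of the 32 in the series, all of batch 1 by the labels. All 401 tRNA loci of the deposited tables entered, each being a tRNA gene with 50 nt on either side. By the study's methods mice were males on a C57BL/6N background, homozygous for the deletion. The study's reporting summary gives an age of 10 weeks and says that its results rest on both sexes. By the study's methods they were matched for age and, against wild types, for litter, and nothing states such litter matching between the lines compared here. Every line came from embryos injected with 1 guide that matches all 7 tRNA-Phe genes, and the single deletions were separated from each other by breeding. The material was nuclei from a small piece of fresh brain, a mixed tissue, so fewer cells of a type and less accessibility per cell cannot be told apart. The labels call the libraries separate samples, and p-values measure the spread between these samples only.

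tRNA genes are short genes transcribed by RNA polymerase III from promoter elements that lie inside the transcribed sequence. Genes with the same anticodon but different bodies are called isodecoders, and the names used here give the amino acid, the anticodon, the isodecoder family and the copy within it. An open tRNA gene is generally one that can be transcribed, although accessibility does not measure how much tRNA is made.

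The guide and the genes it cuts are printed because the compared mice differ by which of these near-identical genes was deleted. The 20 nt guide, followed by the NGG motif that Cas9 needs, matched the GRCm39 genome exactly at 7 places, and these were the 7 tRNA-Phe genes. In the first gene the capitals mark the bases the guide matches (bases 24 to 43 of 73, around the anticodon that starts at base 34), and in the others they mark the bases that differ from it, counted from 1 at the 5′ end.
guide: gcgttagactgaagatctaaNGG
tRNA-Phe-1-1: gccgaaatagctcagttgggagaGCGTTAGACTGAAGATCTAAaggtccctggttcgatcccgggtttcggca
tRNA-Phe-2-1: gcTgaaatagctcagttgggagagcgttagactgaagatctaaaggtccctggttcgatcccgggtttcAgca
tRNA-Phe-3-1: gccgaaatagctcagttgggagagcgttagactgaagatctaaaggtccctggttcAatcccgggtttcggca
The 5 genes of the tRNA-Phe-1 family were identical over all 73 bases. The gene deleted in Phe21 differed from them by C3T and G70A, which face each other in the acceptor stem of the tRNA, and the gene deleted in Phe31 by G57A. In GRCm39 tRNA-Phe-2-1 lies at chr19:11985909-11985981 on the plus strand, in no annotated gene, 14431 nt from the nearest protein-coding gene, Osbp. tRNA-Phe-1-5 lies 6309 nt from it on the same strand. tRNA-Phe-3-1 lies at chr13:22067055-22067127 on the minus strand, within Gm56563 but in none of its exons, 45355 nt from H2bc24. Since the bodies are so alike, reads could be told apart mainly by the flanks.

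The libraries held 28228 to 29703 reads over the loci in Phe21 and 25712 to 26173 in Phe31, so the totals of the lines did not overlap. The brain label was checked at tRNA-Arg-TCT-4-1, known for its expression in the nervous system. It took 0.818% to 0.981% of the reads in Phe21 brains and 0.772% to 0.840% in Phe31 brains, while Phe21 livers had 1, 2 and 2 reads there. Replicates 7 and 9 differed by no more than counting over the tested loci (chi-square per degree of freedom 1.01), as did replicates 8 and 9 (1.10). Replicates 7 and 8 did differ (1.61), so the 3 were kept as 3 samples, and the counts below are also given with replicates 7 and 9 averaged as 1 sample. Values below are normalised reads, that is, whole reads divided by a size factor computed over these 6 libraries.

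The direct comparison separated the lines at the deleted genes in opposite directions. The genotypes set the order at both genes in advance, so these loci serve as a check of the labels. Each deletion lies within the counted region, so lost sequence and closed chromatin cannot be told apart there. tRNA-Phe-3-1 gave 44.7, 35.95 and 29.97 normalised reads in the Phe21 libraries, against 3.14, 1.04 and 3.17 in the Phe31 libraries, where it is deleted. The groups did not overlap, with 116 reads in all in Phe21 and 7 in Phe31. The Phe31 level was 6.66% of the other line's (95% interval for counting error 2.62 to 14.2%). On the log2 scale, with 1 added to each value, Phe21 minus Phe31 was 3.51 (SE 0.434, 95% interval 2.61 to 4.42, adjusted p = 2.35e-05, limma). The exact two-sided permutation test of this locus alone gave p = 0.1, the smallest that 3 against 3 allow.

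tRNA-Phe-2-1 showed the opposite order at a much lower level. It gave 1.94, 0 and 0 normalised reads in Phe21, against 11.5, 3.13 and 13.8 in Phe31, from 2 and 27 reads. The groups did not overlap, and replicate 11 was the lowest of the line that carries the gene. The Phe21 level was 6.72% of the other line's, with a wide interval for counting error (0.774 to 26.7%). Its mean of 5.05 normalised reads lay under the minimum of 10 set for the test. Fitted without that minimum, the difference was -2.67 and did not pass (adjusted p = 0.0679, limma). Its exact permutation test (two-sided) also gave 0.1. It passed under equal library totals (adjusted p = 0.0398), cyclic loess (0.0119) and edgeR (0.0199).

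The 5 identical genes of the tRNA-Phe-1 family are carried by both lines, and none was called. tRNA-Phe-1-1, the most open of the 7, gave 126, 124 and 117 normalised reads in Phe21, against 106, 106 and 108 in Phe31. The groups did not overlap, and the log2 difference was 0.20 (95% interval -0.03 to 0.42, adjusted p = 0.369, limma). tRNA-Phe-1-2 gave 87.4, 100 and 88.0 against 72.1, 78.3 and 81.5 normalised reads, again without overlap, with a log2 difference of 0.25 (-0.02 to 0.51, adjusted p = 0.335, limma). tRNA-Phe-1-3 (97.1, 118 and 93.6 against 105, 89.8 and 107) and tRNA-Phe-1-4 (81.6, 67.2 and 76.8 against 80.5, 63.7 and 75.1) overlapped between the lines. Their log2 differences were 0.03 (-0.23 to 0.30) and 0.04 (-0.25 to 0.34), and both turned negative when single libraries were left out.

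tRNA-Phe-1-5, the neighbour of the gene deleted in Phe21, was the member of its family with a difference below 0. It gave 57.3, 57.7 and 59.0 normalised reads in Phe21, against 70.0, 58.5 and 67.7 in Phe31. The groups overlapped, and the log2 difference was -0.17 (95% interval -0.47 to 0.14, adjusted p = 0.664, limma). The intervals of all 5 genes included 0, and reached 0.51 upward and -0.47 downward at the widest.

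Summed over the 7 genes, the tRNA-Phe loci held 496, 503 and 464 normalised reads in Phe21 against 447, 401 and 456 in Phe31. The sums did not overlap, and the Phe21 mean (488 ± 20.7, SD, n = 3) was 112% of the Phe31 mean (435 ± 29.7, SD, n = 3). The intact tRNA-Phe-3-1 held 7.53% of the tRNA-Phe reads in Phe21, whereas the intact tRNA-Phe-2-1 held 2.12% in Phe31. Over the 5 tRNA-Phe-1 genes the sums overlapped, at 450, 467 and 435 against 433, 397 and 439 normalised reads. Their Phe21 mean was 107% of their Phe31 mean.

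**Figure D1:**
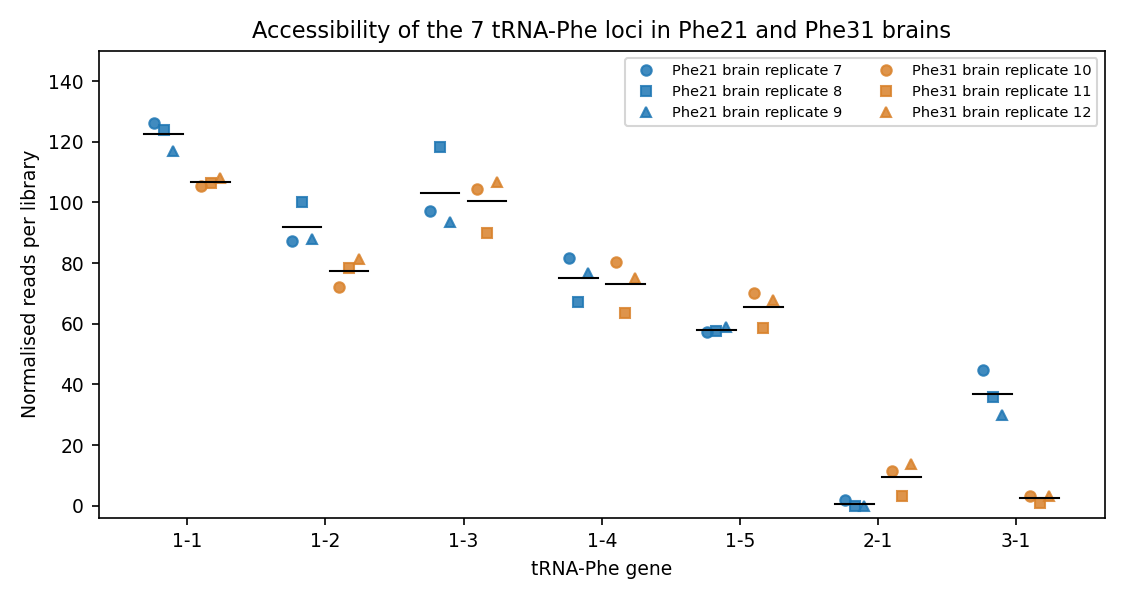
Normalised reads per library (vertical axis) at each of the 7 tRNA-Phe genes (horizontal axis), with Phe21 brains in blue, Phe31 brains in orange, a symbol per replicate and a black line at each mean of 3. The 2-1 gene is at 0 to 1.94 in Phe21 and the 3-1 gene at 1.04 to 3.17 in Phe31, while the 5 genes of the tRNA-Phe-1 family stay above 57 in every library.

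Beyond the tRNA-Phe genes few loci were called. Of the 401 loci, 257 reached the minimum level and were tested, and 13 were called at an adjusted p under 0.05 (5.06% of those tested). Of these, 6 were higher in Phe21 (2.33%) and 7 lower (2.72%). Apart from tRNA-Phe-3-1, the other 12 passed narrowly, with adjusted p between 0.0291 and 0.0444 (limma). The count rested on single libraries. It was 11 without replicate 7, 6 without replicate 12, 2 without replicate 10, and 1 without replicate 8, 9 or 11. With replicates 7 and 9 as 1 sample it was 1, and that locus was tRNA-Phe-3-1. edgeR called 7 and DESeq2 called 1. At an unadjusted p under 0.05 (limma) there were 44 loci, against 12.9 expected if no locus differed. Pairs of libraries from different lines correlated at r = 0.919 to 0.9495 across the tested loci (9 pairs), pairs within Phe21 at 0.969 to 0.979 and within Phe31 at 0.925 to 0.966, a description over loci that are not independent replicates.

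The groups did not overlap at 57 of the tested loci (22.2%), 31 of them higher in Phe21 (12.1%) and 26 lower (10.1%). The median log2 difference was 0.00, with 131 loci above 0 and 126 below. For 228 loci (88.7%) the 95% interval of the difference lay within a 2-fold change either way, and for 177 (68.9%) within 1.5-fold.

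The called loci other than tRNA-Phe-3-1 that were higher in Phe21 all had means above 90 normalised reads over the 6 libraries. tRNA-Leu-AAG-1-2, which reads leucine codons, gave 104, 108 and 112 normalised reads in Phe21 against 71.1, 77.2 and 84.7 in Phe31 (log2 difference 0.47, SE 0.123, 95% interval 0.22 to 0.73, limma). tRNA-Leu-TAG-3-1, another leucine gene, gave 145, 156 and 142 against 101, 119 and 119 (0.39). Neither pair of groups overlapped. The sister copies of the first gene were split, at 0.42 for tRNA-Leu-AAG-1-1 (adjusted p = 0.133, limma) and 0.03 for tRNA-Leu-AAG-1-3.

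tRNA-Arg-CCG-3-1, an arginine gene, gave 168, 201 and 201 normalised reads in Phe21 against 142, 126 and 156 in Phe31 (log2 difference 0.42). tRNA-Pro-CGG-1-1, a proline gene, gave 150, 151 and 129 against 105, 122 and 97.4 (0.41), while its copies tRNA-Pro-CGG-1-2 and tRNA-Pro-CGG-1-3 stood at -0.13 and -0.22. tRNA-Asn-GTT-3-7, an asparagine gene and the most open of the called loci, gave 377, 380 and 382 against 340, 282 and 303 (0.31). In all 3 the groups did not overlap, and each difference is a Phe21 mean of 123% to 134% of the Phe31 mean. The other copies of the asparagine family that were tested ranged from -0.07 for tRNA-Asn-GTT-3-6 to 0.25 for tRNA-Asn-GTT-3-8.

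The called loci that were lower in Phe21 included 3 at low level with differences near 2-fold. tRNA-Leu-CAA-4-1, a leucine gene, gave 30.1, 17.98 and 21.5 normalised reads in Phe21 against 64.8, 48.0 and 29.6 in Phe31 (log2 difference -0.96, SE 0.265, 95% interval -1.52 to -0.41, limma). Here the groups overlapped, since replicate 12 lay just under replicate 7. tRNA-Ser-GCT-1-1, a serine gene, gave 29.1, 13.2 and 24.3 against 46.0, 36.5 and 40.2 (-0.91). tRNA-Thr-AGT-6-1, a threonine gene, gave 29.1, 18.9 and 16.9 against 34.5, 39.7 and 43.4 (-0.86). The serine and threonine loci did not overlap between the lines.

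The other 4 lay at higher levels. tRNA-Ile-AAT-1-4, an isoleucine gene, had the smallest adjusted p after the deleted gene (0.0291, limma), with 108, 115 and 113 normalised reads in Phe21 against 161, 163 and 144 in Phe31 (log2 difference -0.47, 95% interval -0.69 to -0.25). It was called in 10 of 18 alternative fits, the most of the 12. The other 7 copies of its family that were tested ranged from -0.70 to 0.40, none called. tRNA-Arg-ACG-2-1, an arginine gene, gave 79.6, 78.5 and 73.04 against 121, 92.9 and 108 (-0.47). tRNA-Gln-TTG-3-2, a glutamine gene, gave 99.1, 70.96 and 75.9 against 115, 112 and 112 (-0.47), beside 0.14 for its copy tRNA-Gln-TTG-3-1. tRNA-Ala-AGC-5-2, an alanine gene, gave 90.3, 53.9 and 64.6 against 113, 114 and 84.7 (-0.59), and its groups overlapped. None of the 12 loci changed sign in any of the 18 alternative fits, which include each library left out, but they were called in only 4 to 10 of them. The 12 were chosen by their differences in these same libraries, so the kept signs are no separate support for them.

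**Figure D2:**
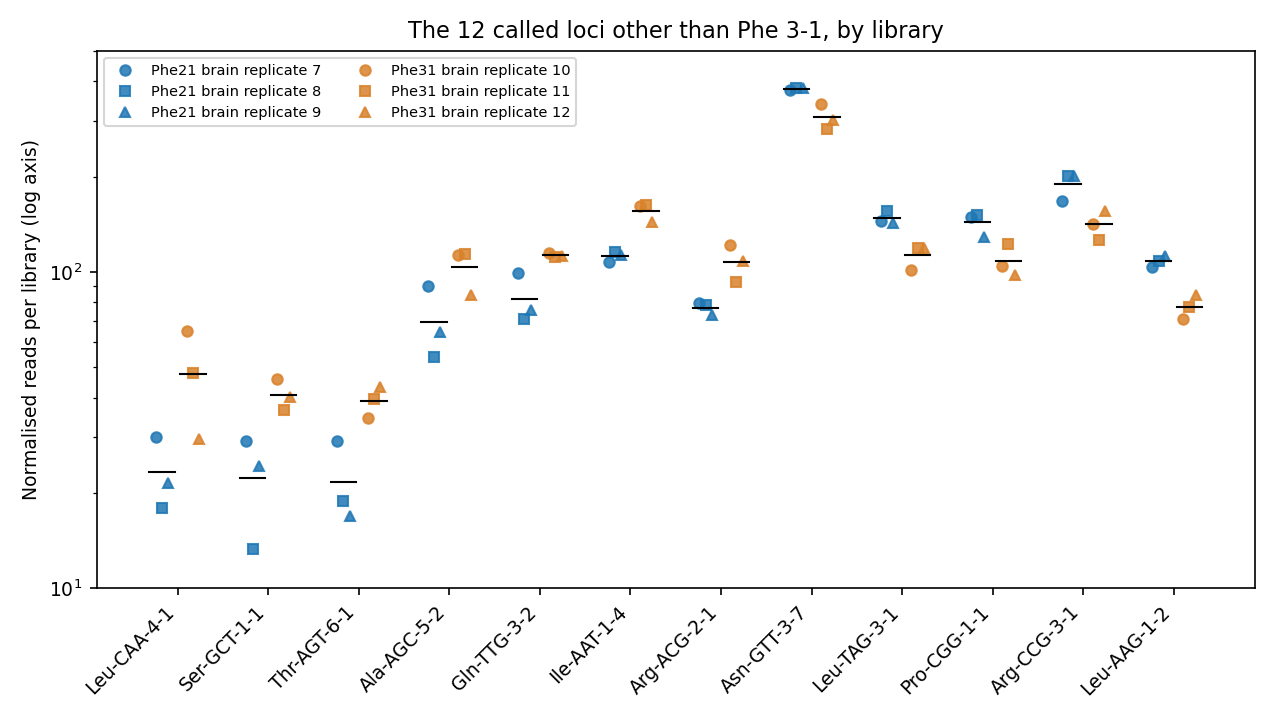
Normalised reads per library (vertical axis, log scale) at the 12 called loci other than tRNA-Phe-3-1, ordered by their difference from lower to higher in Phe21, with blue for Phe21, orange for Phe31, a symbol per replicate and a black line at each mean of 3. Of these loci, Leu-CAA-4-1 and Ala-AGC-5-2 overlap between the lines.

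Just outside the threshold stood tRNA-Ala-TGC-1-1 (log2 difference -0.47, adjusted p = 0.0624, limma) and tRNA-Leu-TAA-3-1 (-0.73, adjusted p = 0.0727, limma). The second gave 21.4, 18.9 and 23.4 normalised reads in Phe21 against 36.6, 36.5 and 33.9 in Phe31, with no overlap, and passed in limma without trend (adjusted p = 0.0395). The brain-enriched tRNA-Arg-TCT-4-1 gave 224, 248 and 271 against 216, 225 and 212, and these groups overlapped by a single pair of libraries (0.18, adjusted p = 0.319, limma).

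The 5 most open loci hardly differed. tRNA-Tyr-GTA-3-1, tRNA-Tyr-GTA-2-1 and tRNA-Tyr-GTA-3-2, all tyrosine genes, had log2 differences of 0.08, -0.002 and 0.03. tRNA-Arg-ACG-1-3 stood at 0.10 and tRNA-Glu-TTC-2-2, a glutamate gene, at 0.02. Their 95% intervals lay between -0.14 and 0.26, and none was called. The sign of each of these 5 turned in at least 1 alternative fit, cyclic loess being the one that turned 4 of them.

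The direction of the differences moved with the level of the locus. The tested loci were put into 4 classes of about equal size by their mean over the 6 libraries. In the class with the lowest mean (10.3 to 40.8 normalised reads) the median log2 difference was -0.20 and 20 of 65 loci lay above 0. In the middle classes the medians were -0.02 and 0.00. In the class with the highest mean (136 to 524) it was 0.08 and 51 of 64 lay above 0. Of the called loci, 3 of the 7 lower in Phe21 fell in the lowest class and none in the highest. Of the 6 higher in Phe21, 2 fell in the highest class and 1, tRNA-Phe-3-1, in the lowest. The read totals moved with the groups in the same comparison, being larger in every Phe21 library. With each library thinned to 1 depth, 12 loci were called, and with cyclic loess, which levels the difference along the level of the loci, 2 were. TMM scaling and limma without trend, which do not level that difference, also gave 2 each. The part of depth in the move with level was not tested.

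**Figure D3:**
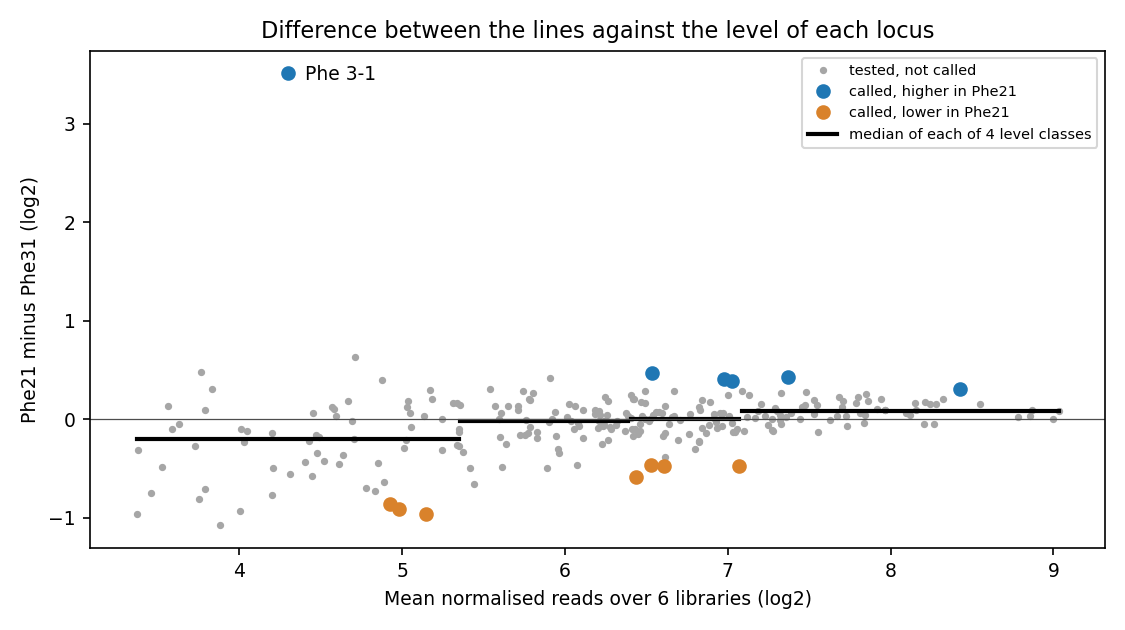
Log2 difference, Phe21 minus Phe31 (vertical axis), against the log2 of the mean normalised reads over 6 libraries (horizontal axis) for the 257 tested loci, with called loci in blue where higher in Phe21 and in orange where lower, and black lines at the median of each of 4 classes by level. tRNA-Phe-3-1 stands alone at 3.51, and the medians go from -0.20 in the lowest class to 0.08 in the highest.

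Grouped by amino acid, the medians of the tested loci stayed between -0.12 for serine (17 loci) and 0.12 for phenylalanine (6 loci), among groups of at least 5, beside 0.00 over all loci. The phenylalanine group held tRNA-Phe-3-1, deleted in Phe31, but not tRNA-Phe-2-1, deleted in Phe21 and not tested. Over the 5 tRNA-Phe-1 genes alone the median was 0.04. Of all loci tested 2.33% were called higher and 2.72% lower, each group held at most 3 calls, and no group was tested against these shares. Leucine had 2 loci called higher and 1 lower of 20, and arginine 1 and 1 of 22. Asparagine and proline had 1 called higher each, of 6 and 14. Alanine, glutamine, isoleucine, serine and threonine had 1 called lower each, of 19, 10, 13, 17 and 16. No locus was called among the 16 for valine, 15 for lysine, 15 for glycine, 12 for glutamate, 10 for aspartate, 10 for cysteine, 9 for tyrosine, 7 for histidine, 7 for tryptophan, 6 each for initiator and elongator methionine, or the 1 for selenocysteine.

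Counted by overlap, called loci included, glutamine had 4 of 10 loci lower in Phe21 without overlap and none higher. Leucine had 6 of 20 higher and 2 lower, and arginine 5 of 22 higher and 3 lower. Proline had 4 of 14 higher and 2 lower, glycine 3 of 15 higher and isoleucine 3 of 13 lower. Phenylalanine had 3 of 6 higher, the deleted tRNA-Phe-3-1 among them. Over all tested loci these shares were 12.1% higher and 10.1% lower, and no group was tested against them. Serine and threonine each had 12 loci below 0, against 5 and 4 above. Summed over all their loci, the means of Phe21 were 91.9% of those of Phe31 for glutamine, 94.98% for serine, 102% for threonine, 107% for arginine, 106% for leucine, 111% for asparagine and 112% for phenylalanine, beside 102% for all 401 loci. The phenylalanine sum holds both deleted genes, and over the 5 tRNA-Phe-1 genes the Phe21 mean was 107% of the Phe31 mean.

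**Figure D4:**
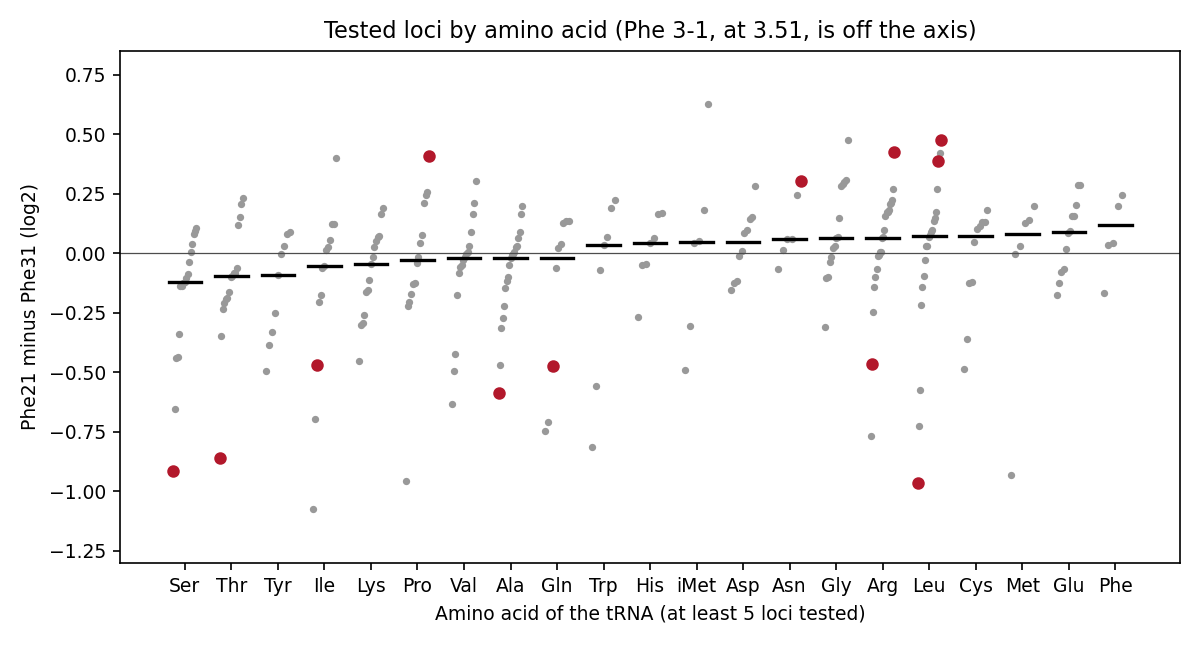
Log2 difference, Phe21 minus Phe31 (vertical axis), for tested loci grouped by amino acid (horizontal axis, groups of at least 5), with grey points for loci not called, red for called ones and black lines at the medians. The medians lie between -0.12 for serine and 0.12 for phenylalanine, and called loci lie on both sides of 0.

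1 library stood apart at a cysteine family. Of the 29 copies of tRNA-Cys-GCA-4, 4 were tested and none was called. tRNA-Cys-GCA-4-12 gave 12.6, 21.8 and 18.7 normalised reads in Phe21 against 7.32, 21.9 and 66.7 in Phe31. tRNA-Cys-GCA-4-10 (31.7) and tRNA-Cys-GCA-4-13 (34.9) were likewise high in replicate 12, which held 126 reads at these 3 copies, against 14 to 43 in the other 5 libraries. The fourth, tRNA-Cys-GCA-4-29, was not high there, at 22.2 against 20.9 to 28.4. Without replicate 12 the difference of tRNA-Cys-GCA-4-12 turned from -0.36 to 0.40 (adjusted p = 0.727, limma), and the other high copies fell under the minimum level. These copies were singled out after their values were seen.

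**Figure D5:**
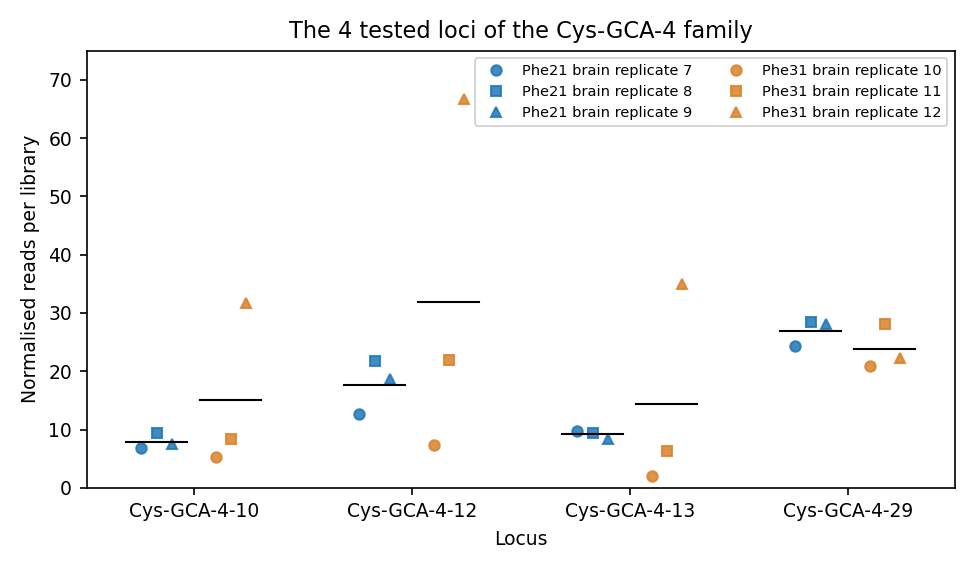
Normalised reads per library (vertical axis) at the 4 tested copies of the Cys-GCA-4 family (horizontal axis), with blue for Phe21, orange for Phe31, a symbol per replicate and a black line at each mean of 3. Replicate 12 of Phe31 is at 31.7, 66.7 and 34.9 in the first 3 copies, above the other 5 libraries, and at 22.2 in the fourth.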

How the data were processed

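ATAC-seq reads over tRNA genes were measured in brain tissue of 3 tRNA-Phe-2-1-/- and 3 tRNA-Phe-3-1-/- mice. By the study's methods and the submitters' processing notes, reads were aligned with Bowtie2 2.4.1 to GRCm38.p6, filtered at a mapping quality of 30 and fragments of up to 175 nt, and counted with featureCounts 2.0.0 over each gene with 50 nt on either side. The deposited values are a normalised signal, counts that the authors divided by DESeq2 1.30.0 size factors within each table. The tables also hold the authors' fold changes, p-values and s-values, which were not used.

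Each library was divided by its smallest value above 0, which gave whole reads for 100% of values (tolerance 1e-06). The tables of both lines were joined on locus. Size factors were computed anew over the 6 libraries (median of ratios). Loci with a mean of at least 10 normalised reads were tested with limma 3.58.1 (trend, R 4.3.3) on log2(normalised reads + 1), with Benjamini-Hochberg adjustment over all tested loci and a threshold of 0.05. Fold changes on this scale understate the change of low loci. Deleted loci also had an exact two-sided permutation test, and their counting intervals are 95% exact ones, for counting error only. Alternatives were other pseudocounts, level minimums and scalings, limma without trend, edgeR 4.0.16, DESeq2 1.42.0, leaving out each library, and 2 chosen after seeing the data. Only the main limma fit and edgeR were also run on simulated reads, drawn with 1 common dispersion estimated from these libraries.

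Named loci were the tRNA-Phe genes, all called loci, the 5 with the highest mean, and 4 named in earlier results. The members and lists were chosen with earlier results of these data known. Sites in GRCm39 came from an own match of the guide, and no coordinates of other tRNA loci were used here. Wild type and liver libraries and other lines entered no test.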

Additional observations from a re-analysis of the deposited data

How the results depend on the processing

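The count of 13 called loci (6 higher in Phe21, 7 lower) fell to 1 with no minimum level, 2 with TMM scaling over the loci other than tRNA-Phe, 2 with cyclic loess, 2 with limma without trend, 7 with edgeR and 1 with DESeq2, and ranged from 1 to 11 with each library left out. With replicates 7 and 9 averaged as 1 sample, chosen after seeing the data, it was 1. Thinning to 1 depth, also chosen afterwards, gave 12, as did a minimum of 30 normalised reads, which left the deleted loci without a value. tRNA-Phe-3-1 was called wherever it had a value, at log2 differences of 3.18 to 3.69 with each library left out. tRNA-Phe-2-1 passed at -2.68 under equal totals, -2.49 under cyclic loess and -3.67 under edgeR, and ranged from -3.25 to -2.34 with each library left out. With pseudocounts of 0.1 and 10 in place of 1, tRNA-Phe-3-1 was at 3.99 and 1.91, and tRNA-Phe-2-1 at -4.88 and -0.83. Uncalled loci near 0 changed sign: under cyclic loess tRNA-Tyr-GTA-3-1 (-0.044), tRNA-Arg-ACG-1-3 (-0.025), tRNA-Tyr-GTA-3-2 (-0.093) and tRNA-Glu-TTC-2-2 (-0.10), the last also under equal totals (-0.0077), and tRNA-Tyr-GTA-2-1 when thinned (0.0085). With each library left out in turn, tRNA-Phe-1-3 ranged from -0.062 to 0.108, tRNA-Phe-1-4 from -0.046 to 0.127, tRNA-Tyr-GTA-2-1 from -0.047 to 0.033, tRNA-Tyr-GTA-3-2 from -0.0053 to 0.085 and tRNA-Glu-TTC-2-2 from -0.045 to 0.062. The causes were not tested. Depth limits the loci of low level, where few reads give wide intervals. No paired analysis was possible because sample numbers 7 to 9 and 10 to 12 are not shared between the lines.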

Other observations

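Among tRNA genes with particular roles, the initiator methionine loci, whose tRNA starts translation, had 6 of 9 copies tested and none called. The differences farthest from 0 were in opposite directions, at -0.49 for tRNA-iMet-CAT-1-7 (adjusted p = 0.102, limma) and 0.63 for tRNA-iMet-CAT-3-1 (adjusted p = 0.258, limma). Their levels in Phe21 and Phe31 were 44.7, 53.9 and 47.8 against 64.8, 58.5 and 85.7 normalised reads at the first, which did not overlap, and 33.02, 23.7 and 38.4 against 14.6, 29.2 and 17.99 at the second, which did. The single selenocysteine locus, tRNA-SeC-TCA-1-1, gave 94.2, 125 and 94.6 against 141, 116 and 110 normalised reads (log2 difference -0.23, adjusted p = 0.409, limma). These loci were singled out after their values were seen.

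The 144 loci under the minimum level held 1.03% of the reads, and 26 of them had no read in any of the 6 libraries. Among them 12 did not overlap between the lines, 3 higher in Phe21 and 9 lower, tRNA-Phe-2-1 included, beside 12.1% higher and 10.1% lower of the 257 tested loci. The largest mean among the others was that of tRNA-Gln-CTG-3-2, with 5.06 normalised reads in Phe21 and 12.2 in Phe31.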
